A study of Mus musculus with 10 samples.

Results

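Tmlhe, Aldh9a1 and Bbox1 encode the known enzymes of L-carnitine synthesis. They are described here in skeletal muscle of mice fed L-carnitine from a young age. The genes were taken by name, 3 of the 22180 genes measured, and each was read from the probe set that the array's annotation assigns to it alone. All 3 genes had exactly 1 such probe set. A further probe set, whose annotation lists Tmlhe among several gene symbols, was not used.

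The gastrocnemius, a muscle of the calf, was taken from 10 male NMRI mice, an outbred stock, and the total RNA of each mouse had its own Affymetrix Mouse Gene 2.0 ST array. The control group (5 mice) ate a basal diet of natural ingredients with less than 5 mg carnitine per kg. The carnitine group (5 mice) ate that diet with 1000 mg L-carnitine per kg added. The diets began after 1 week of acclimatisation in mice bought at 3 weeks of age, and mice of each diet were killed at 9, 15 or 18 months. The series title speaks of advanced age, but the age of each mouse on the arrays is not given in the labels, so age was not used. The soybean meal in the basal diet was chosen for its low carnitine content, so the control mice were also on a diet that supplied little carnitine. The RNA samples were drawn at random from each diet group, and housing in cages of 5 means that mice may share a cage, which the labels do not record.

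Fatty acids with long chains enter mitochondria bound to carnitine. Carnitine is made from trimethyllysine, which is released when proteins with methylated lysines are broken down. Trimethyllysine hydroxylase (Tmlhe), a mitochondrial oxygenase that needs iron, 2-oxoglutarate and vitamin C, takes the first step. An aldolase whose gene is not settled cuts the product, the aldehyde dehydrogenase encoded by Aldh9a1 oxidises the resulting aldehyde to gamma-butyrobetaine, and gamma-butyrobetaine dioxygenase (Bbox1), an oxygenase related to Tmlhe, makes carnitine. In mice the last step takes place mainly in the liver, and muscle takes up most of its carnitine from the blood.

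Bbox1 is a known target of the fatty acid sensing receptor PPAR alpha in mouse liver, and RefSeq promoter windows were available for Bbox1 and Aldh9a1. The windows run 5′ to 3′ from 250 bases before to 50 bases after the annotated start, on the GRCm38.p6 assembly. They are shown because the 2 genes differ in base composition and because the stretch most like a PPAR element can be read in each. Capitals mark the 13 bases with the most letters in common with the repeat AGGTCANAGGTCA, in which N stands for any base, searched on both strands. The Bbox1 window lies on the minus strand at chr2:110305676-110305975 and the Aldh9a1 window on the plus strand at chr1:167349741-167350040.

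Bbox1: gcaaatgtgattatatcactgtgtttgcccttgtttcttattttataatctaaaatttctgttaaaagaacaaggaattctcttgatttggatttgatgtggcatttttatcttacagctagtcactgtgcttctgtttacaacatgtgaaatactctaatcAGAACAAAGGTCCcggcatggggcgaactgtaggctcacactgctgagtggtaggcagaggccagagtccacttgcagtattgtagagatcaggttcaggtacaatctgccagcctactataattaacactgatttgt
Aldh9a1: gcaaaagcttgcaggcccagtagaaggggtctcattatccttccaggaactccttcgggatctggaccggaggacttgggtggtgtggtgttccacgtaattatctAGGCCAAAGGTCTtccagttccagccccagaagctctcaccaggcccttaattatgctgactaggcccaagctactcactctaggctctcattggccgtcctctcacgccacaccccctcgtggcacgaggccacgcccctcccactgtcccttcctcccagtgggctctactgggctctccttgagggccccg

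The Bbox1 window holds 39.3% G and C and 2 CpG pairs, and 8.9% of 32841 RefSeq windows have a lower G and C content. The Aldh9a1 window holds 59.0% G and C and 9 CpG pairs, and 68.1% of windows have a lower content. The marked stretch of Bbox1 begins at position -88 from the start and has 9 of the 12 fixed letters of the repeat, as many or more than 9 being found in 24.6% of all windows. The marked stretch of Aldh9a1 begins at position -144 and has 10 of 12 letters, as many or more than 10 being found in 3.86% of windows. Neither window contains the unit AGGTCA in full on either strand, which 16.3% of windows contain. These are matches of letters and do not show binding.

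Values are RMA log2 signals, on which a step of 1 is a doubling, and differences are carnitine minus control. Probe sets differ in how strongly they bind, so signals of different probe sets are not comparable as amounts of RNA, and a place in the range of signals is given below only as a description. Skeletal muscle markers were at the top of the signal range, with mean signals from 12.41 to 13.82 for all 12 of 12 listed genes. Hepatocyte markers had mean signals from 4.53 to 6.62, and 6 of 12 lay below the median probe set signal of 5.80. Kidney tubule markers had mean signals from 4.54 to 6.69, and 8 of 10 lay below it. The array of control replicate 5 stood apart. The interquartile range of its signals was 2.20, against 2.39 to 2.59 on the other 9 arrays, and its mean over 73 small nucleolar RNA genes was 6.76, against 7.33 to 7.94. In RNA from whole muscle, fewer cells of a type and less RNA per cell cannot be told apart.

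None of the 3 enzymes differed between the diets beyond the spread of the mice. Over all genes, 0 of 22180 (0%) passed an adjusted p of 0.05 in limma, a linear model fitted to all genes with Benjamini-Hochberg adjustment, and the smallest adjusted p was 0.338. At an unadjusted p below 0.05, 696 genes (3.14%) were higher and 850 genes (3.83%) lower in carnitine muscle, and 0 of the 3 enzymes were among them. The groups did not overlap in 112 genes (0.505%) that were higher and 135 genes (0.609%) that were lower in carnitine, and overlapped in all 3 enzymes.

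Tmlhe, the enzyme of the first step, was measured at 7.72, 7.83, 7.37, 7.48 and 7.13 in control replicates 1 to 5. In carnitine replicates 1 to 5 its signals were 7.81, 7.67, 7.80, 7.58 and 7.46. The carnitine mice lay inside the control range, and the lowest signal of all was that of control replicate 5. Control mice averaged 7.51 ± 0.28 and carnitine mice 7.66 ± 0.15 (SD, n = 5 per group). The difference was 0.16 (SE 0.13, 95% confidence interval -0.11 to 0.43, limma adjusted p = 0.754), which as a fold is 1.12 with an interval from 0.923 to 1.35. An exact two-sided permutation test over the 252 assignments of arrays gave p = 0.294. Without control replicate 5 the difference fell to 0.06 (limma adjusted p = 0.953), and without control replicate 2, the highest mouse, it was 0.24 (limma adjusted p = 0.467).

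Aldh9a1, the dehydrogenase before the last step, had the widest spread of the 3. Control replicates 1 to 5 gave 7.55, 7.12, 6.72, 7.06 and 6.51. Carnitine replicates 1 to 5 gave 7.00, 6.60, 6.84, 6.77 and 6.57. The 3 highest mice were controls, and so was the lowest, control replicate 5. Control mice averaged 6.99 ± 0.40 and carnitine mice 6.76 ± 0.18 (SD, n = 5 per group). Carnitine minus control was -0.24 (SE 0.16, 95% confidence interval -0.59 to 0.11, limma adjusted p = 0.730). The interval spans folds from 0.666 to 1.08, and the exact two-sided permutation p was 0.286. Control replicates 1 and 5 pulled the difference in opposite directions. It was -0.10 without control replicate 1 (limma adjusted p = 0.815) and -0.36 without control replicate 5 (limma unadjusted p = 0.0285, adjusted p = 0.876). The pooled within-group SD of Aldh9a1 was 0.309, and 93.1% of genes had a smaller one. That of Tmlhe was 0.224, above 74.0% of genes.

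Bbox1, the last enzyme, gave a weak signal on every array. Control replicates 1 to 5 were at 4.03, 3.99, 3.87, 4.37 and 3.91, and carnitine replicates 1 to 5 at 3.74, 4.05, 4.13, 4.08 and 3.91. All 10 values lay below the median probe set signal of 5.80, and whether any Bbox1 RNA was present cannot be read from them. The highest mouse was control replicate 4 and the lowest carnitine replicate 1. Control mice averaged 4.03 ± 0.20 and carnitine mice 3.98 ± 0.16 (SD, n = 5 per group). Carnitine minus control was -0.05 (SE 0.11, 95% confidence interval -0.29 to 0.19, limma adjusted p = 0.905), with an exact two-sided permutation p of 0.683. The sign turned to 0.03 without control replicate 4, to 0.008 without carnitine replicate 1 and to 0.02 after cyclic loess scaling.

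**Figure D1:**
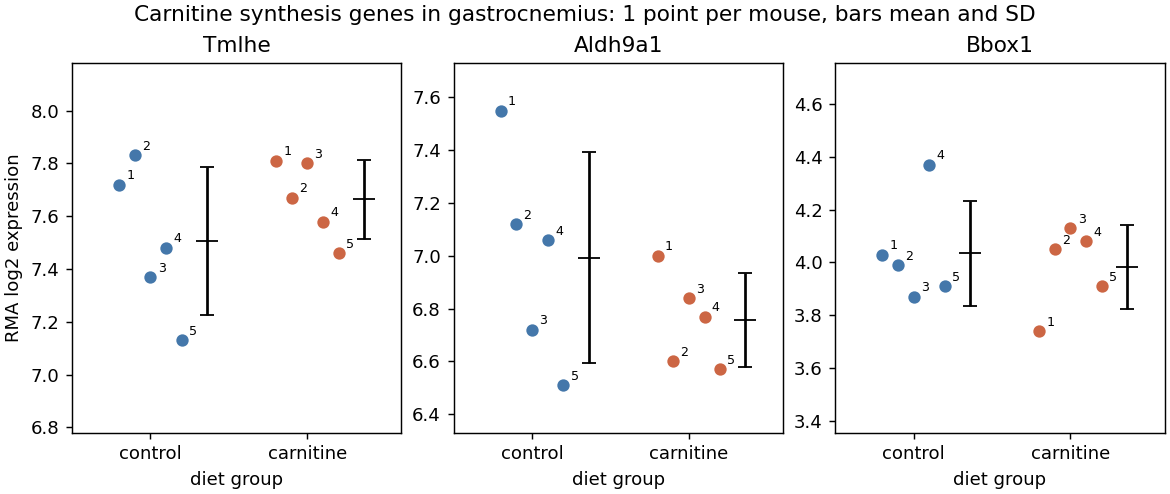
RMA log2 expression (vertical axis, the same span of 1.4 in each panel) of Tmlhe, Aldh9a1 and Bbox1 in each mouse by diet group. Points are mice numbered by replicate, and black bars give the mean and SD of 5 mice. The groups overlap in all 3 genes, and control replicate 5 is the lowest mouse for Tmlhe (7.13) and Aldh9a1 (6.51).

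**Figure D2:**
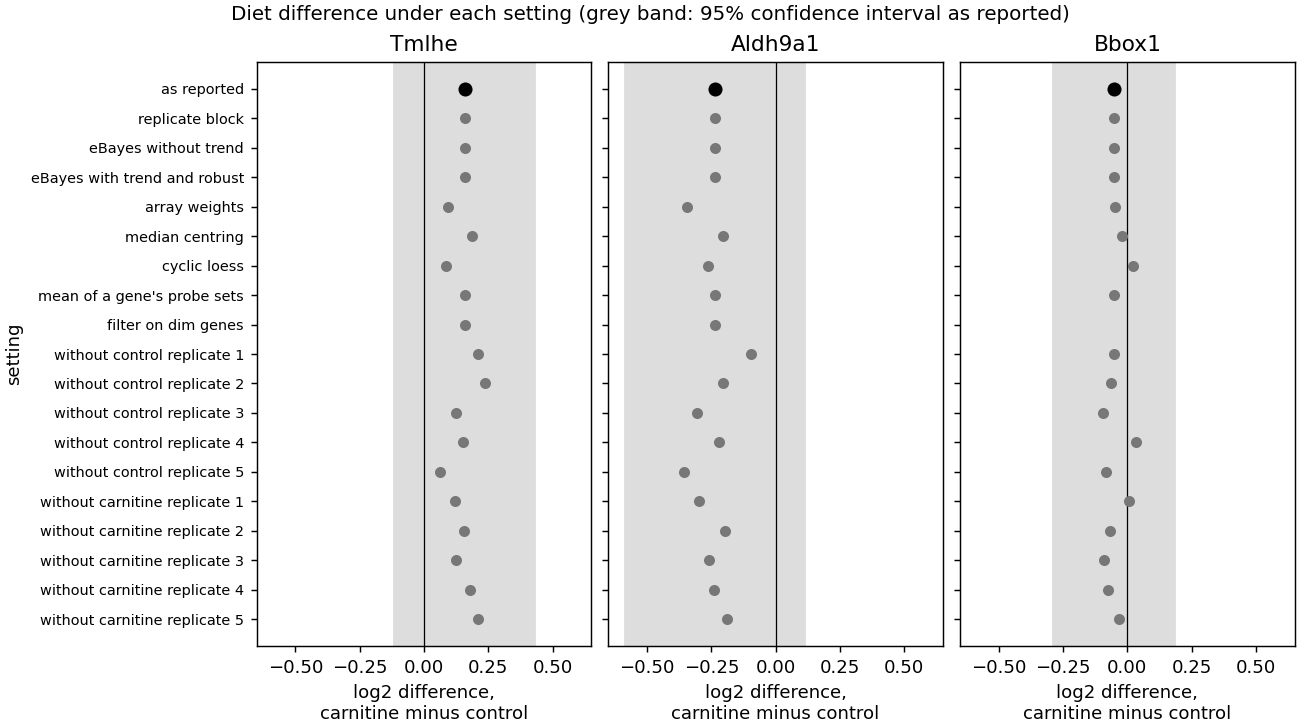
The diet difference (horizontal axis, log2, carnitine minus control) of each enzyme under every setting tried (vertical axis), with the reported value in black and its 95% confidence interval as a grey band. Tmlhe stayed between 0.06 and 0.24 and Aldh9a1 between -0.36 and -0.10, while Bbox1 lay on both sides of 0. Bbox1 has no point under the filter on dim genes because the filter removes it.

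Tmlhe and Aldh9a1 kept a similar order of mice within each diet. Over all 10 mice Pearson's r was 0.568 (permutation p = 0.0879, adjusted over 6 relations 0.295) and Spearman's rho 0.709 (permutation p = 0.0268, adjusted 0.161), and without control replicates 3 and 5, the mice farthest from the median of Tmlhe, r was 0.378. Taken as deviations from the mean of each diet group, r was 0.832 (p = 0.0166 by permutation within groups, adjusted 0.0997) and rho 0.915 (permutation p = 0.00434, adjusted 0.026). This r ran from 0.719, without control replicate 5, to 0.914, without control replicate 2. Among 22179 other genes, 293 (1.32%) had a higher r of deviations with Tmlhe than Aldh9a1 had, and 318 (1.43%) a higher one with Aldh9a1 than Tmlhe had. The median r of deviations over genes was -0.097 with Tmlhe and -0.104 with Aldh9a1. Bbox1 followed neither gene, with r of 0.046 with Tmlhe (permutation p = 0.899, adjusted 0.995, rho 0.128 with permutation p = 0.726, r -0.417 without control replicates 3 and 5) and 0.220 with Aldh9a1 (permutation p = 0.529, adjusted 0.793, rho 0.280 with permutation p = 0.431, r 0.356 without control replicates 1 and 2).

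The small differences of Tmlhe and Aldh9a1 had opposite signs, and the gap between their signals in the same mouse did not overlap between the diets. Tmlhe minus Aldh9a1 was 0.17, 0.71, 0.65, 0.42 and 0.62 in control replicates 1 to 5. It was 0.81, 1.07, 0.96, 0.81 and 0.89 in carnitine replicates 1 to 5, so every carnitine mouse lay above every control. The mean gap was 0.51 ± 0.22 for control and 0.91 ± 0.11 for carnitine mice (SD, n = 5 per group), 0.39 apart. The size of a gap between different probe sets has no meaning of its own, and only its change between mice is described. The pair was chosen after its values were seen, so no test is given. For comparison, 216 of the 22179 other genes (0.974%) had a gap to Aldh9a1 that was higher in every carnitine mouse than in any control, and Tmlhe had such a gap to 43 genes (0.194%). When any single array was left out, the difference ran from 0.31 to 0.44. Leaving out arrays cannot make separate groups overlap, so it does not test the lack of overlap. The groups overlapped after cyclic loess, where the difference was 0.35.

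**Figure D3:**
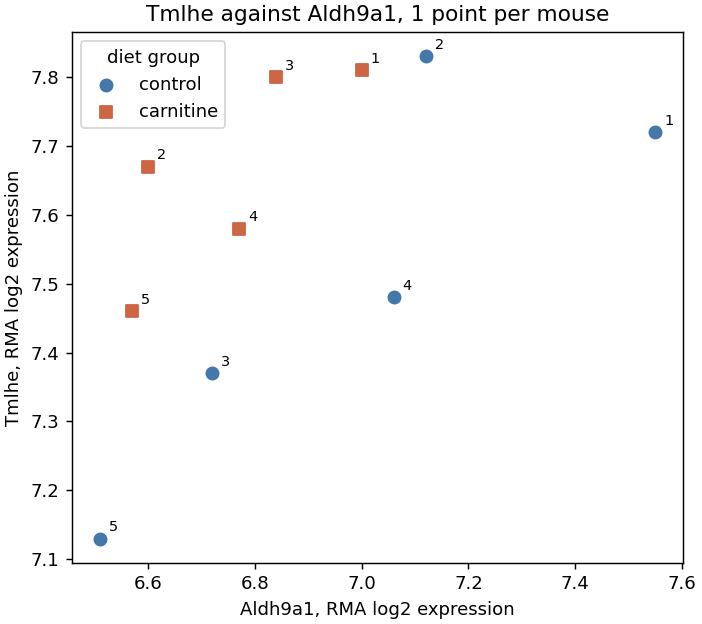
Tmlhe (vertical axis) against Aldh9a1 (horizontal axis) in RMA log2 expression, 1 point per mouse, numbered by replicate, circles for control and squares for carnitine. Within each diet the mice run from lower left to upper right, with an r of deviations from the group means of 0.832, and the groups overlap on each axis alone, while the gap between the genes is 0.81 to 1.07 in carnitine against 0.17 to 0.71 in control mice.

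Tmlhe also moved with a property of the arrays, a relation computed after the data were seen. It followed the interquartile range of signals on the array (r 0.866, permutation p = 0.00111, adjusted over 3 relations 0.00333, rho 0.888 with permutation p = 0.00121, adjusted 0.00363, and r 0.751 without control replicates 4 and 5). Of all genes, 7.29% had a larger absolute r with this range. For Aldh9a1 r was 0.422 (permutation p = 0.211, adjusted 0.317, rho 0.541 with permutation p = 0.111, and r 0.432 without the same arrays), and for Bbox1 -0.184 (permutation p = 0.556, adjusted 0.556, rho -0.244 with permutation p = 0.491, and r -0.477 without them). The part of the array's range in the Tmlhe values was not tested.

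**Figure D4:**
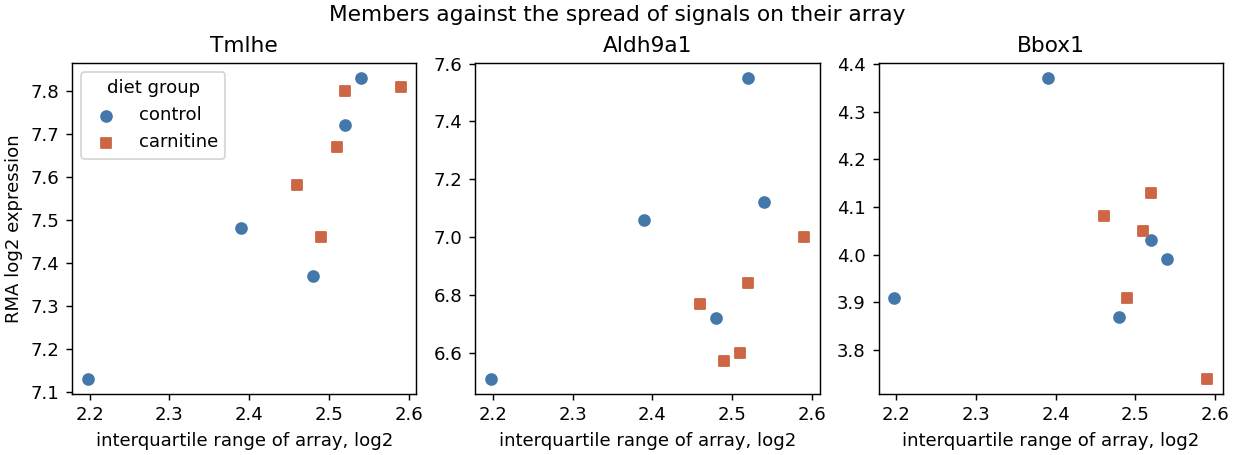
RMA log2 expression of each enzyme (vertical axis) against the interquartile range of all signals on the same array (horizontal axis, log2), 1 point per mouse, circles for control and squares for carnitine. Tmlhe is lowest, at 7.13, on the array with the narrowest range, 2.20, and its points rise with the range, with r 0.866.

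Markers of muscle and other cells were also set beside the enzymes after the data were seen, 8 lists against 3 genes. The mean of 10 endothelial markers ran from 7.42 to 8.13 in control and from 7.69 to 8.11 in carnitine muscle and moved with Tmlhe (r 0.850, permutation p = 0.00224, adjusted over 24 relations 0.0269, rho 0.733 with permutation p = 0.0201, adjusted 0.184, and r 0.692 without control replicates 1 and 5). With Aldh9a1 its r was 0.734 (permutation p = 0.018, adjusted 0.144, rho 0.721 with permutation p = 0.023, adjusted 0.184, and r 0.606 without the same arrays). Of the 10 endothelial markers, 4 had a positive difference between the diets (median -0.007). All 10 of 10 fibroblast markers had a positive difference (median 0.19), and 10 of 12 hepatocyte markers a negative one (median -0.11). Differences were positive in 47.5% of all genes and in 67.5% of genes above the median mean signal, where all fibroblast markers lie. Negative differences numbered 11530 among all 22180 genes and 3544 among the 11090 above that median, so weaker signals held most of them. Hepatocyte marker signals ran from 4.53 to 6.62, and 8 of 10 kidney tubule markers, also weak, were negative too. These counts of signs are not read as a result about the cells. In the endothelial, fibroblast, hepatocyte and Schwann cell lists 0 genes had an unadjusted limma p below 0.05. The skeletal muscle list had 1 gene higher at that p, and the adipocyte, macrophage and kidney tubule lists 1 lower each. Of all genes, 3.14% were higher and 3.83% lower at that p. The mean of 10 kidney tubule markers, whose signals are weak, ran from 5.25 to 5.59 in control and from 5.21 to 5.41 in carnitine and moved against Tmlhe (r -0.911, permutation p = 0.0004, adjusted 0.0096, rho -0.879 with permutation p = 0.00163, adjusted 0.0391, and r -0.795 without control replicate 5 and carnitine replicate 1). The remaining relations had an adjusted p of at least 0.175 for r. The permutation p sets each r against no relation at all. No share of all genes with as large an r is given for these marker means, so how unusual these r values are cannot be read. Control replicate 5, the array with the narrowest range of signals (2.20), had the lowest endothelial mean (7.42) and the highest kidney tubule mean (5.59). On carnitine replicate 1, with the widest range (2.59), these means were 8.11 and 5.21. The part of these cells, of weak signals or of the array's range in the enzyme values and marker means was not tested.

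Genes of slow muscle fibres were compared in the same way. Of 14 such genes, 13 had a negative difference and 11 of these an unadjusted limma p below 0.05, with 0 past the adjusted threshold. Of all genes, 850 (3.83%) were lower at that p, as were 147 of the 11090 above the median mean signal, where all 14 lie. The list was chosen with earlier results of these data known. The mean of the 14 genes ran from 8.88 to 9.60 in control and from 7.16 to 9.36 in carnitine. Its r was -0.002 with Tmlhe (permutation p = 0.995, adjusted 0.995), 0.554 with Aldh9a1 (permutation p = 0.0984, adjusted 0.295) and 0.465 with Bbox1 (permutation p = 0.182, adjusted 0.364). Spearman's rho was -0.018, 0.600 and 0.523 (permutation p = 0.973, 0.0743 and 0.125). Without carnitine replicates 2 and 5, the mice with the lowest slow-fibre means, r was -0.171, 0.323 and 0.784.

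The genes whose pattern over the 10 mice was most like each enzyme were picked by Pearson's r among genes above the median mean signal. They are given as a description, without a test, since the highest of so many values is high by construction. For Tmlhe they were Cyp2u1 (r 0.955), Cryzl1 (0.953), Fzd6 (0.948) and Traf7 (0.946). The r of Traf7 dropped to 0.168 after cyclic loess and that of Cyp2u1 to 0.780. For Aldh9a1 they were Clip4 (0.936), the proline pathway dehydrogenase Aldh4a1 (0.931), the fatty acid transporter Slc27a1 (0.930) and the pantothenate kinase Pank1 (0.915). For Bbox1 they were Odf3b (0.963), Armcx4 (0.894), Ccm2l (0.878) and the actin nucleation subunit Arpc1a (0.876), of which Odf3b was at 0.800, Ccm2l at 0.619 and Arpc1a at 0.456 after cyclic loess. Armcx4 was at 0.744 without control replicate 4, the mouse with the highest Bbox1 signal. Because the Bbox1 signal was weak on every array, whether these likenesses concern its RNA cannot be read.

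The lists around the pathway follow its order, and no member of any passed limma's adjusted threshold over all genes. Differences were more often positive at higher signals: 67.5% of the 11090 genes above the median mean signal were positive, with a median of 0.06, against 47.5% of all genes, with a median of -0.008. Trimethyllysine comes from proteins methylated on lysine. Of 31 protein lysine methyltransferases (36 listed), 24 had a positive difference, with a median of 0.06 and 0 at an unadjusted p below 0.05. The smallest p values there were those of Eef1akmt1, which methylates a translation elongation factor (7.99 ± 0.28 in control and 8.22 ± 0.10 in carnitine, limma adjusted p = 0.719), Vcpkmt, which methylates the VCP ATPase (difference 0.26), and Atpsckmt, which methylates a subunit of ATP synthase (difference 0.18). Eef1akmt1 was at 0.35 without control replicate 3 and 0.14 after cyclic loess. Vcpkmt was at 0.17 without control replicate 4 and 0.16 without control replicate 5, and Atpsckmt at 0.08 without control replicate 4. Of 13 lysosomal proteases, which release the methylated lysine, 12 had a positive difference and 1 was at 0, with a median of 0.08 and 0 at an unadjusted p below 0.05. Tpp1, a tripeptidyl peptidase, differed by 0.18 (SE 0.087, limma adjusted p = 0.715), the cathepsin gene Ctsf by 0.17 and the cathepsin gene Ctsd by 0.13. After cyclic loess Tpp1 was at 0.08 and Ctsd at 0.05.

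The aldolase step has 3 candidate genes here. Shmt1, the cytosolic serine hydroxymethyltransferase, was measured at 5.96, 6.09, 6.27, 6.36 and 6.32 in control and at 6.43, 6.53, 6.21, 6.56 and 6.40 in carnitine replicates 1 to 5. Of the carnitine mice, 4 lay above every control and carnitine replicate 3 lay among them. The difference was 0.23 (SE 0.10, limma p = 0.0465, adjusted p = 0.712, exact permutation p = 0.0556). Of all genes, 3.14% were higher at an unadjusted limma p below 0.05. When any single array was left out, the Shmt1 difference ran from 0.166 to 0.28. The unadjusted limma p was 0.13 without control replicate 1 and 0.11 without carnitine replicate 4. Shmt2, its mitochondrial counterpart, differed by 0.10 (SE 0.11). That value was 0.05 without control replicate 5, 0.04 without carnitine replicate 3, 0.17 without carnitine replicate 2 and 0.003 after cyclic loess. The threonine aldolase gene Tha1 differed by 0.04 (SE 0.096), a sign that turned without control replicate 2.

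The difference of Aldh9a1, -0.24, lay toward the lower end of its family, whose other members ran from -0.268 to 0.134. Its limma adjusted p was 0.730, and the difference was -0.10 without control replicate 1. Since 93.1% of genes had a smaller within-group SD, its place in the family is only a description. Of 20 other aldehyde dehydrogenases, 8 had a positive and 12 a negative difference, with a median of -0.04. Of these, 1 had an unadjusted p below 0.05 and was lower, as were 3.83% of all genes. That gene was Aldh3b1, a dehydrogenase of lipid aldehydes, at 6.50 ± 0.19 for control and 6.24 ± 0.19 for carnitine mice (-0.27, SE 0.12, limma adjusted p = 0.712, exact permutation p = 0.0397). Aldh1l2, the mitochondrial formyltetrahydrofolate dehydrogenase, differed by -0.26 (SE 0.13), and the retinaldehyde dehydrogenase Aldh1a3 by -0.18 (SE 0.13). Both had signals near the median probe set. Aldh1l2 was at -0.17 without carnitine replicate 4, and Aldh1a3 at -0.06 without control replicate 5 and -0.10 with array weights. Of 45 oxygenases that share the cofactors of Tmlhe and Bbox1 (51 listed), 30 had a positive difference, with a median of 0.04 and 0 at an unadjusted p below 0.05. The smallest p values belonged to the transfer RNA modifying Alkbh8 (difference 0.34, SE 0.17), Ogfod3 (0.15) and the nucleic acid demethylase Alkbh3 (0.15). Alkbh8 was at 0.22 without control replicate 5, and after cyclic loess Ogfod3 was at 0.06 and Alkbh3 at 0.05.

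Of 5 genes listed under vitamin C supply, Rgn, which encodes a lactonase of ascorbate synthesis, differed by -0.22 (SE 0.088, limma adjusted p = 0.712, exact permutation p = 0.0238). Its signals were weak, at 4.61, 4.39, 4.59, 4.78 and 4.60 in control and 4.30, 4.41, 4.40, 4.38 and 4.37 in carnitine replicates 1 to 5. Control replicate 2 was the 1 control that lay inside the carnitine range. The ascorbate transporter gene Slc23a2 differed by 0.03, its relative Slc23a1 by 0.04 and Gulo, the last enzyme of ascorbate synthesis in mice, by 0.07. The signs of Slc23a1, Slc23a2 and Gulo turned under at least 1 setting. Slc23a3, of the same gene family as the transporters, differed by -0.15, and whether it carries ascorbate was not examined. Without control replicate 5 Slc23a3 was at -0.09. After cyclic loess Rgn was at -0.14.

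Of 8 carnitine transporters, 4 were higher on average and 4 lower in carnitine muscle. The groups did not overlap, with carnitine lower, in 135 of all 22180 genes (0.609%) and in 1 of these 8, Slc22a21. That gene, a relative of the main carnitine transporter Slc22a5, was at 5.72, 5.88, 5.73, 6.07 and 6.10 in control and 5.37, 5.59, 5.69, 5.52 and 5.45 in carnitine replicates 1 to 5, a difference of -0.38 (SE 0.10, limma adjusted p = 0.712) in a signal near the median probe set level. Slc6a14 differed by -0.22 and Slc22a16 by -0.16, both with mean signals below the median probe set. Slc6a14 was at -0.12 without control replicate 5, and Slc22a16 at -0.10 after cyclic loess. Of 5 measured acyltransferases (6 listed), which join carnitine and fatty acids, 3 were positive and 2 negative. Crot was at 0.19 (SE 0.15), Cpt1c at -0.14 (SE 0.093) and Cpt1a at 0.04 (SE 0.16), and the sign of Cpt1a turned under at least 1 setting. After cyclic loess Crot was at 0.09, and leaving out carnitine replicate 5, control replicate 4 or carnitine replicate 3 put it at 0.09, 0.12 or 0.29.

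**Figure D5:**
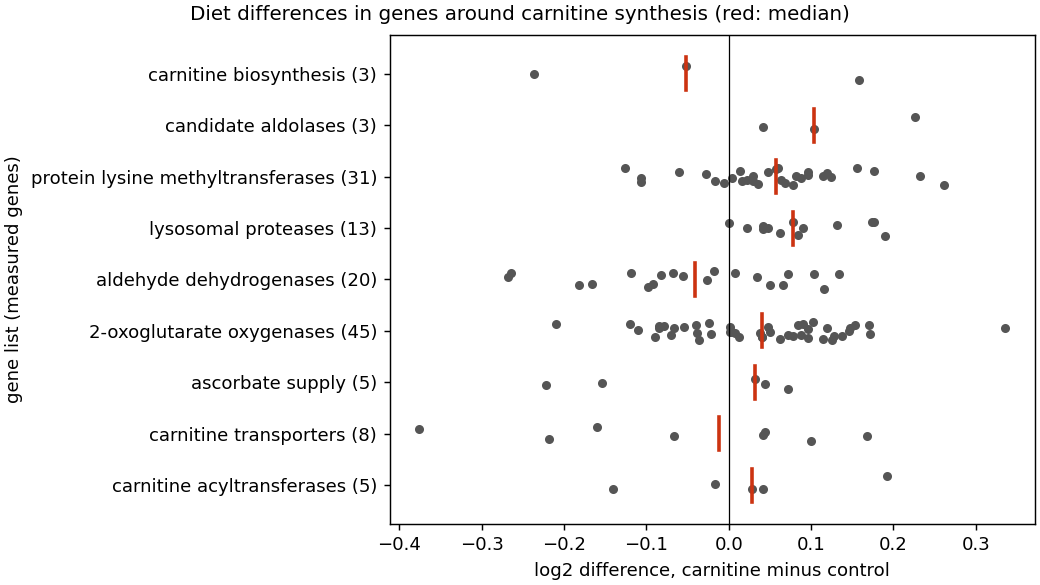
Diet differences (horizontal axis, log2, carnitine minus control) of the genes in each list (vertical axis, with the number of measured genes), 1 point per gene and a red bar at the list's median. The 3 enzymes of carnitine synthesis lie at -0.24, -0.05 and 0.16. Aldh9a1, at -0.24, is lower than every gene of 6 of the 8 other lists, and the aldehyde dehydrogenases and the transporters reach lower. Its limma adjusted p was 0.730, and without control replicate 1 its difference was -0.10.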

How the data were processed

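The deposited values are log2 signals per probe set, made by the authors with RMA in Affymetrix Expression Console, per the submitters' processing notes. The sources used here give no version and no genome build. RMA corrects background, normalizes arrays and summarises probes, so a change in total RNA cannot be seen. Of 34390 probe sets, 23521 have 1 gene symbol in the platform annotation, 1814 several and 9055 are not listed there. For genes with several probe sets (1082 of 22180) the one with the highest mean was kept, without a filter on dim signals.

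Carnitine and control were compared with limma 3.58.1 in R 4.3.3 (lmFit, eBayes with a mean-variance trend) over all 22180 genes, Benjamini-Hochberg adjusted, two-sided, threshold 0.05. The fit was tested on simulated data. Over all genes, 95% confidence intervals of log2 differences had a median half-width of 0.236, and the number of arrays limits this precision. Exact permutation tests used all 252 assignments and cannot go below p = 0.00794; correlations used 100000 permutations. P-values set a difference or an r against the variation between these mice, whose cages and ages are not labelled.

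The members and lists were chosen with earlier results of these data known. Genes named from the lists are the 3 with the smallest p of each, and all of the aldolase and vitamin C lists; likeness genes are the 4 with the highest r, without predicted genes, small RNAs and olfactory or vomeronasal receptors. Alternatives were a replicate block, other variance models, array weights, median centring, cyclic loess, the mean of probe sets, all probe sets, a dim filter and omission of each array.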

Additional observations from a re-analysis of the deposited data

How the results depend on the processing

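Under every setting that could be run, the adjusted limma p stayed above 0.05, from 0.467 to 0.953 for Tmlhe, 0.591 to 0.900 for Aldh9a1 and 0.780 to 0.994 for Bbox1. Tmlhe stayed positive and Aldh9a1 negative. The replicate numbers shared by the groups were not taken as pairs: the correlations of deviations of same-numbered arrays ran from -0.132 to 0.236, and 2 of 5 arrays correlated best with their own number. With the replicate block, Tmlhe differed by 0.16 (adjusted p = 0.655), Aldh9a1 by -0.24 (0.619) and Bbox1 by -0.05 (0.888), and 0 genes passed and 1802 had an unadjusted p below 0.05.

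Leaving out each array, the difference ran from 0.06 to 0.24 for Tmlhe, -0.36 to -0.10 for Aldh9a1 and -0.093 to 0.032 for Bbox1. It ran from -0.019 to 0.101 for Tha1, -0.015 to 0.23 for Gulo, -0.026 to 0.117 for Slc23a1, -0.032 to 0.108 for Slc23a2 and -0.06 to 0.16 for Cpt1a. The count of genes past the threshold was 1 without control replicate 2 and 0 without any other array, and genes with an unadjusted p below 0.05 numbered 1115 to 2560, the latter without control replicate 2. That count was 732 (571 higher, 161 lower) with the dim filter, which leaves 11090 genes, and 2437 over all probe sets. Median centring moved the median difference by 0.03 and gave 739 higher and 697 lower.

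After cyclic loess Bbox1 stood at 0.023 and Slc23a2 at -0.016. Array weights put Slc23a2 at -0.014 and Cpt1a at -0.054, and the mean of probe sets put Slc23a2 at -0.005; the cause was not tested. The r of slow-fibre genes with Tmlhe became 0.004 after median centring, 0.048 after cyclic loess and 0.277 as deviations from group means. The settings for the Tmlhe and Aldh9a1 pair and for pattern likeness were chosen after seeing the data. The dim filter gives no value for Bbox1. At signals as weak as that of Bbox1, signal over background limits what the arrays can show. No gene of the 58 gene and group combinations examined had a mouse far enough from the rest to be marked by Dixon's ratio (0.71 for 5 samples).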
